A study of Drosophila melanogaster with 3 samples.

Results

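Keap1, cnc and maf-S encode the sensor, the transcription factor and the dimer partner of the redox response, and their loci were examined for binding of the zinc finger protein CG11762, named ouib. These 3 genes, of 13945 protein-coding genes in the annotation, were chosen by name, with earlier results of these data known. For each gene, every peak that overlapped the gene body or the 5 kb on either side by at least 1 bp was collected. All of them had such a peak in the optimal list, the authors' list of reproducible peaks, as did 43.5% of protein-coding genes. Among protein-coding genes longer than 30 kb, as cnc is, the share was 65.3%. Because the 3 genes were chosen with binding known, their peaks are described here and not tested.

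The experiment was a chromatin immunoprecipitation with an anti-GFP antibody, followed by sequencing, on whole Drosophila melanogaster prepupae, males and females pooled, of unknown age. All animals came from a stable transgenic line in which eGFP was joined to the C-terminus of CG11762, and 3 biological replicates formed the only group, with no treatment and no untagged group among them. The promoter that drives the fusion is not given in the sources used here, and binding in different tissues of the animal cannot be told apart. The replicate lists and a pooled list hold 30000 peaks each, background included.

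As background, Keap1 is an adaptor of a Cul3 ubiquitin ligase that holds the long Cnc protein, the fly counterpart of mammalian Nrf2, in check. Oxidants and electrophiles release Cnc, a basic leucine zipper factor, which pairs with the small Maf protein maf-S on antioxidant response elements and turns on detoxification and antioxidant genes. In flies Keap1 and Cnc have also been linked to ecdysone synthesis in the prothoracic gland, and ouib is known as a regulator of that gland.

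The peaks that the account turns on lie on chromosome arm 3R, and the 200 bp around their summits are shown on dm6. This lets the strongest windows be compared with a promoter peak and a weak peak, outside the optimal list, at a distant cnc promoter. Capitals mark matches, on either strand, to any of 7 patterns: TGACNNNGC and the looser TGANNNNGC, which describe the antioxidant response element core, the AP-1 type TGANTCA, the TATA box letters TATAAAA, the DREF type element TATCGAT, the E-box CACGTG and the repeat unit GAGAG. Every match to TGACNNNGC is also a match to TGANNNNGC. Bases are those of the RefSeq copy of the assembly.
Strongest Keap1 window, chr3R:17080793-17080992, plus strand: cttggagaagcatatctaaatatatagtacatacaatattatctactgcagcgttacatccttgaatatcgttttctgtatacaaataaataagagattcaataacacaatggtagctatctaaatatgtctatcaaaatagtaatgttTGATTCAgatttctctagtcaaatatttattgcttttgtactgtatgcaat
Keap1 promoter window, chr3R:17079923-17080122, plus strand: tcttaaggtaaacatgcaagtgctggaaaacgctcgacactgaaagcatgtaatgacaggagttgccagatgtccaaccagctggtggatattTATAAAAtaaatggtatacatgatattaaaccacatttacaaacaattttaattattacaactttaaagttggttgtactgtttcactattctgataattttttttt
cnc optimal window, chr3R:23189976-23190175, plus strand: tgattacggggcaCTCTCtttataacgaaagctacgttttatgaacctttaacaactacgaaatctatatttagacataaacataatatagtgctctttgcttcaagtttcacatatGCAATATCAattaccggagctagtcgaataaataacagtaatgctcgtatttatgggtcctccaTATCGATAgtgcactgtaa
cnc-RC promoter window, below the optimal threshold, chr3R:23221641-23221840, plus strand: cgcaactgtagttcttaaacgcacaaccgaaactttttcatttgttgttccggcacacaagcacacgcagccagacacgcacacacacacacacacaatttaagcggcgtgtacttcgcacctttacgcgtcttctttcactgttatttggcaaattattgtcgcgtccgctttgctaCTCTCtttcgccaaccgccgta

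In the strongest Keap1 window the capitals are a single AP-1 type match, TGATTCA, at 17080942 to 17080948, 49 bp from the summit. TGANTCA was found in 4.95% of all optimal windows of this length. The Keap1 promoter window holds TATAAAA at 17080016 to 17080022, ending just before its summit, as 18.0% of optimal windows do somewhere. The cnc optimal window holds a looser antioxidant element match, read on the minus strand, at 23190093 to 23190101. It also holds overlapping matches to TATCGAT on both strands at 23190157 to 23190164 and a GAGAG match read on the minus strand. These are matches of letters and not sites of binding by Cnc or by any other factor.

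The Keap1 locus carried the strongest peak. Keap1 (FBgn0038475) spans 17073942 to 17079945 of 3R on the minus strand, has 3 transcripts and 2 start sites, and had 3 optimal peaks in its window. Signal is the authors' value per peak, divided in each replicate by the median of its best peaks, as many as the optimal list holds, so that 1 is a typical strong peak. The summit at 17080893 lay 948 bp upstream of the Keap1-RA and Keap1-RC start. It measured 5.77 in replicate 1, 4.58 in replicate 2 and 3.67 in replicate 3, a mean of 4.67 ± 1.05 (SD, n = 3). It ranked 82 by signal in the optimal list, where 98.4% of peaks were weaker. All 3 replicates were high there, with ranks of 53, 98 and 159 in their own lists, and replicate 1 was the highest.

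That summit lies inside another gene. kuk (FBgn0038476), which encodes a protein of the nuclear envelope, runs the opposite way from Keap1 and starts at 17080244, so that the 2 start sites are 299 bp apart. The summit falls in a kuk intron, 649 bp downstream of that kuk start and closer to it than to Keap1. A peak list does not assign a peak to either gene, and the 2 genes cannot be told apart as its target. Its interval was 222 bp wide, against a median of 396 bp, and 97 of the 100 optimal peaks with the highest signal were narrower than that median. The summits in the 3 replicates fell within 42 bp of each other.

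The other Keap1 peaks were weaker. At the main Keap1 promoter a summit at 17080023, in the gap between Keap1 and kuk, lay 78 bp upstream of the Keap1-RA and Keap1-RC start. It measured 0.380 in replicate 1, 1.02 in replicate 2 and 1.34 in replicate 3, a mean of 0.912 ± 0.488 (SD, n = 3). Replicate 1 was far below the others, with a rank of 10251 in its list against 2466 and 1599. The replicate summits were spread over 213 bp, more than at 96.3% of optimal peaks, and the coefficient of variation, 53.6%, exceeded that of 96.97% of them. When only replicate peaks with a summit within 100 bp were taken, replicate 1 had none, and replicates 2 and 3 gave 1.02 and 0.577. Within 500 bp of the start itself, the best replicate 1 peak was 0.587, at rank 5595 and 420 bp downstream. By that measure, used for the other starts below, the mean was 0.981 ± 0.377 (SD, n = 3). The promoter peak of Keap1 was thus the least repeatable of its peaks in size and position.

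The third Keap1 peak, with a summit at 17081817, lay 129 bp upstream of a second kuk start at 17081946 and 1872 bp from Keap1. It measured 1.26, 0.973 and 1.26 in replicates 1, 2 and 3, a mean of 1.17 ± 0.167 (SD, n = 3). These values were close to each other and all below those of the strongest peak. The optimal summits therefore formed a cluster across the divergent Keap1 and kuk starts, and 11.8% of optimal peaks have at least 2 other optimal summits within 2000 bp. The downstream Keap1-RB start at 17078102, whose transcript encodes a protein of 776 residues against 744 for the others, had no optimal summit within 1000 bp. Replicate peaks within 500 bp of it measured 0.432 in replicate 1 and 0.299 in replicate 3, and replicate 2 listed none.

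**Figure D1:**
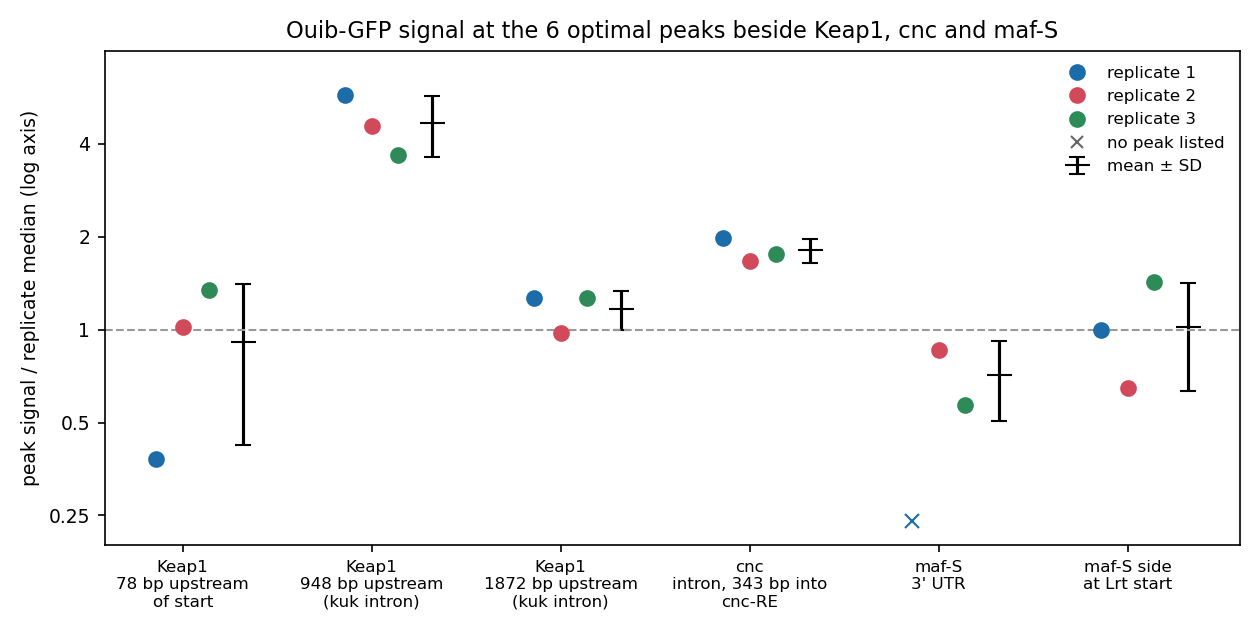
Normalised signal of the 6 optimal peaks at Keap1, cnc and maf-S, with a point per replicate, a cross where a replicate lists no peak, and the mean ± SD (n = 3, or 2 beside the cross) on a log axis. The strongest Keap1 peak, 3.67 to 5.77, does not overlap the cnc peak, 1.67 to 1.98, and the Keap1 promoter peak and the peak at the Lrt start overlap each of the other peaks below cnc.

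At cnc the only optimal peak lay among the starts of the short isoform. cnc (FBgn0262975) is a long gene, spanning 23185580 to 23226711 of 3R on the minus strand, with 16 transcripts from 10 start sites. Its summit fell at 23190076, in an intron, 343 bp downstream of the cnc-RE start. It measured 1.98 in replicate 1, 1.67 in replicate 2 and 1.76 in replicate 3, a mean of 1.80 ± 0.158 (SD, n = 3). It ranked 836 in the optimal list, and its replicates differed little, with a coefficient of variation of 8.75% against a median of 20.1% for optimal peaks. The 3 summits lay within 7 bp of each other, a spread smaller than at nearly all optimal peaks, of which 3.22% were tighter.

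In each replicate the strongest Keap1 peak exceeded the cnc peak, by 2.91, 2.74 and 2.09 times in replicates 1, 2 and 3, a mean ratio of 2.58 ± 0.435 (SD, n = 3). The replicate values of the 2 peaks did not overlap, and those of the cnc peak did not overlap those of the Keap1 peak at 17081817, the next in order. The Keap1 peak at 17081817 was above the weaker maf-S peak without overlap. The Keap1 promoter peak and the stronger maf-S peak overlapped both of these and each other, and have no order among them.

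**Figure D2:**
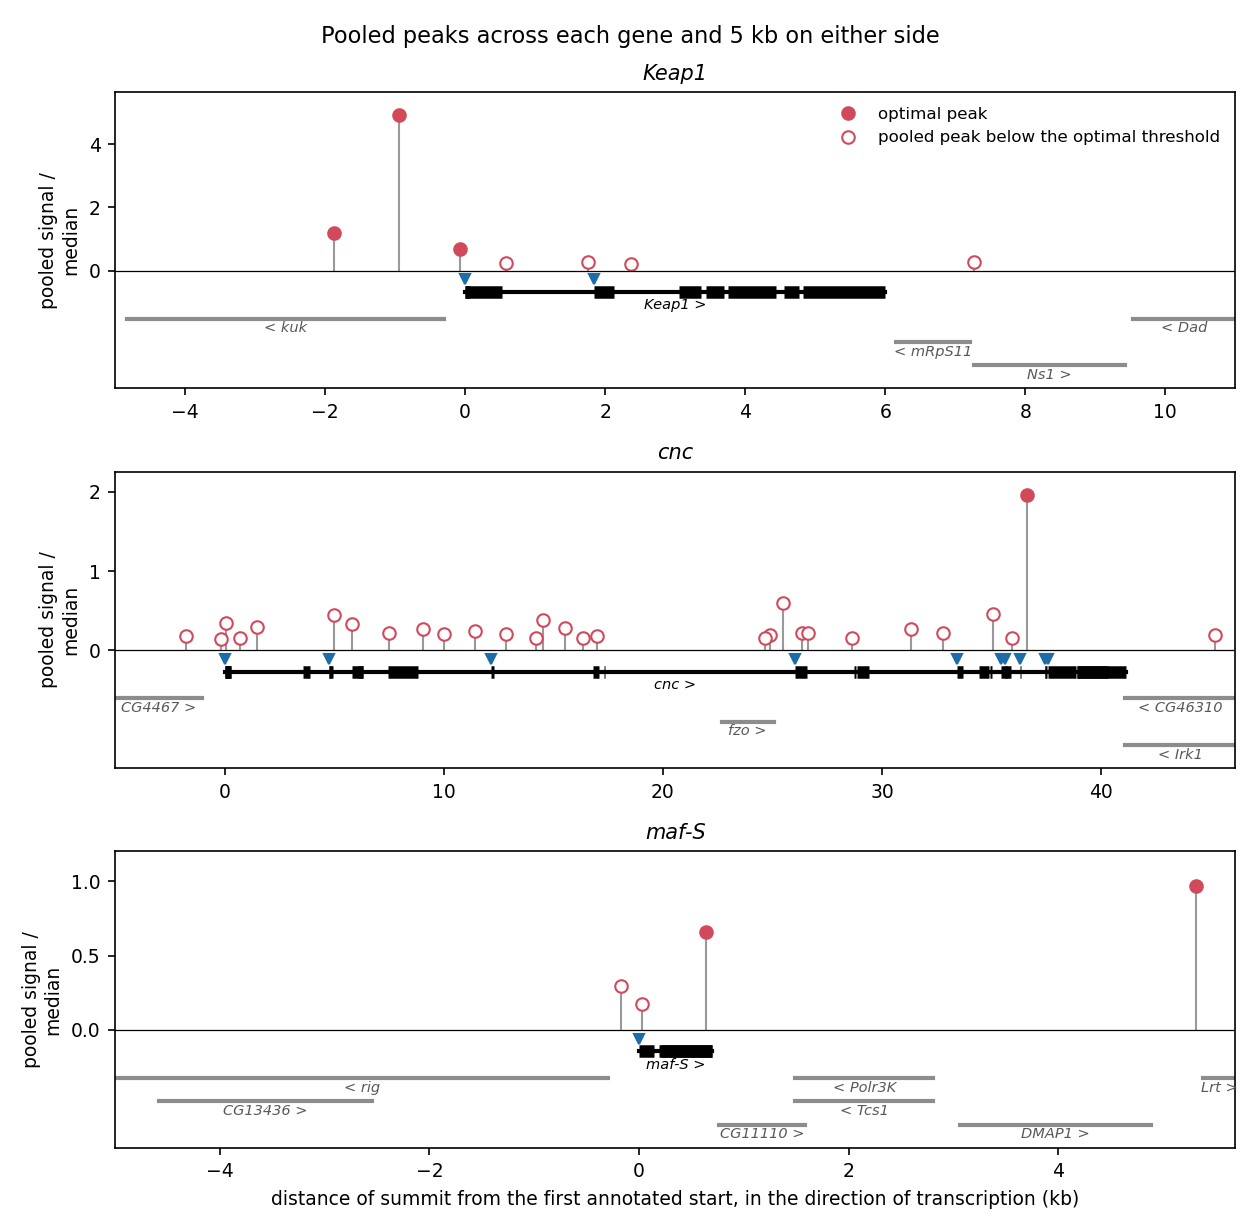
Pooled signal, divided by the median, at each pooled summit (vertical axis) against its distance in kb from the first annotated start, with gene models below, start sites as triangles and optimal peaks filled. Optimal summits cluster upstream of Keap1, while cnc has 1 optimal summit near its short-isoform starts and many weak pooled peaks across its 41132 bp.

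The 10 cnc starts differ in the protein they lead to and in their peaks. The cnc-RE, cnc-RF, cnc-RG, cnc-RD, cnc-RH and cnc-RA transcripts, which all encode a protein of 533 residues, start in the downstream end of the gene. Their starts lie within 1207 bp of the optimal summit. The cnc-RD and cnc-RH start and the cnc-RA start lie 796 and 947 bp from it, so that with cnc-RE 3 of 10 cnc starts had an optimal summit within 1000 bp, all of them the same summit. Among all start sites of protein-coding genes the share was 18.1%. The cnc-RF and cnc-RG starts lie 1044 and 1207 bp away.

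The longest Cnc proteins come from the start at 23221961. Transcripts cnc-RC, cnc-RJ and cnc-RK encode 1383 residues and cnc-RO encodes 1430, the long form that is the Nrf2 counterpart and carries the Keap1-binding region. The nearest optimal summit was 29450 bp away, outside the cnc window. A pooled peak with its summit at 23221741, 220 bp downstream of this start, missed the optimal list. It measured 0.474 in replicate 1, 0.215 in replicate 2 and 0.732 in replicate 3, a mean of 0.473 ± 0.259 (SD, n = 3). Every replicate value there was below every value at the short-isoform peak.

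The remaining cnc starts also lacked a strong peak. The most upstream start, at 23226711, which leads to 1133 residues, had peaks of 0.555 and 0.437 in replicates 1 and 3 within 500 bp and none in replicate 2. The cnc-RB start, leading to 805 residues, had 0.288 and 0.508 in replicates 1 and 3, and replicate 2 listed none. These are different peaks, at summits 23200343 and 23201190, and a replicate 1 peak of 0.844 at 541 bp and a replicate 2 peak of 0.240 at 572 bp lay just beyond that distance. The cnc-RL start, leading to 1046 residues, had a peak of 0.345 in replicate 1 alone, and the cnc-RP start had none in any replicate. Within 500 bp these starts thus ranged from no listed peak to 0.555. The cnc-RF and cnc-RG starts had peaks in every replicate, between 0.260 and 0.618, and share the same peaks in replicates 2 and 3.

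**Figure D3:**
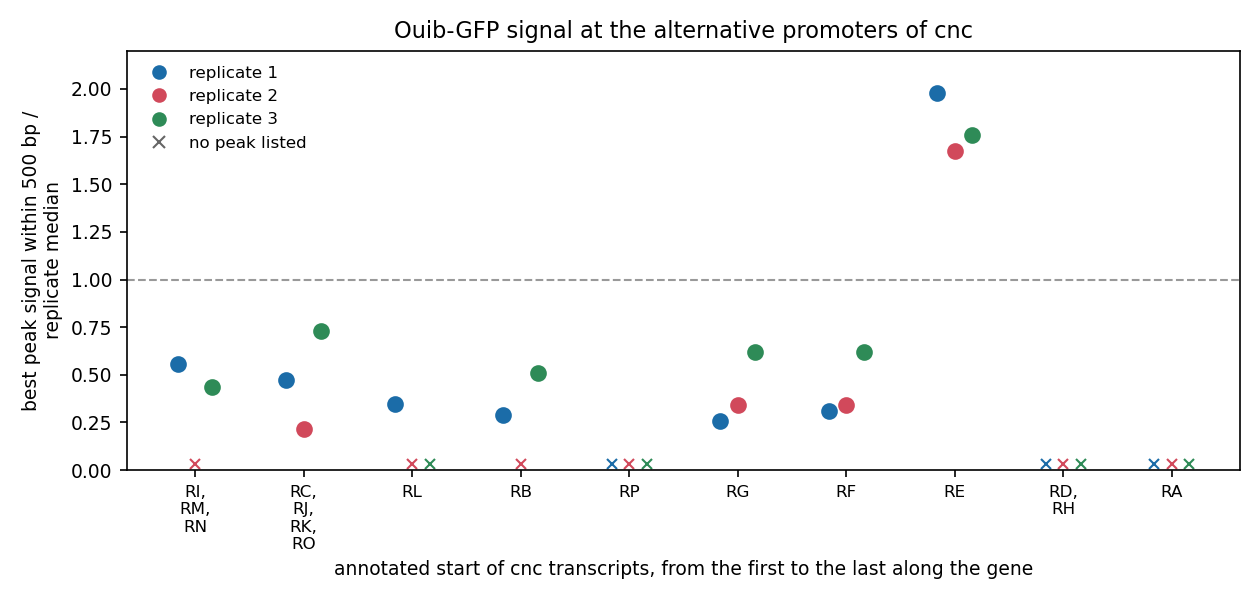
Best replicate peak within 500 bp of each of the 10 cnc start sites, as normalised signal, with a point per replicate and a cross where a replicate lists none. The cnc-RE start stands at 1.67 to 1.98, and every other start is below 0.75 within this distance.

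Beyond the optimal peak, cnc held many weak entries of the pooled list, which includes background. The pooled list had 29 peaks in the cnc window, 7 in the Keap1 window and 4 in the maf-S window. Per 10 kb of window these are 5.67, 4.37 and 3.74 pooled peaks, against a median of 1.89 over all protein-coding genes and 2.29 over the 663 genes longer than 30 kb. The cnc density exceeded that of 96.1% of those long genes. Replicates 1, 2 and 3 listed 30, 17 and 21 peaks in the cnc window. Of the 29 pooled peaks, 12 overlapped a peak in every replicate. The share of all pooled peaks that do so was not counted. Of those 12, the peaks with summits at 23200343 and 23200096 overlap each other and share the same peaks in replicates 1 and 2. Outside the optimal list, the highest values read as −log10 q at cnc were 2.96, 1.93, 1.79 and 1.29, and the lowest was 0.065. Many of these entries may thus be background, and their density is not a density of binding sites.

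The 28 cnc peaks below the optimal list had pooled signal from 0.146 to 0.599 on the normalised scale, with a median of 0.213. The strongest of them, with its summit at 23201217, lay just outside the threshold, at 60.8 on the authors' scale against 61.1 for the weakest optimal peak, and ranked 5074 in the pooled list. It measured 0.844 in replicate 1, 0.240 in replicate 2 and 0.508 in replicate 3. It lies 517 bp upstream of the cnc-RB start, between that start and fzo, a mitofusin gene nested in cnc. The weaker maf-S peak, at 66.8, and the Keap1 promoter peak, at 70.8 on the same scale, were inside the threshold but low in the optimal list. There 10.4% and 17.3% of peaks were weaker than these.

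maf-S carried little signal at its own start. maf-S (FBgn0034534), a short gene of 693 bp on the plus strand of 2R, from 20640976 to 20641668, has 2 transcripts from 1 start, which encode 132 and 137 residues. Within 500 bp of that start replicate 1 listed no peak, replicate 2 had 0.204 and replicate 3 had 0.192. Both optimal summits of its window lie nearer to the start of another gene than to the maf-S start, although 1 of them is inside maf-S. Its own start thus had the lowest mean signal of any member start with a peak in more than 1 replicate. Both values were near the lowest in their lists, 0.154 in replicate 2 and 0.171 in replicate 3, and may be background.

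The stronger optimal peak, with its summit at 20646296, lies 64 bp upstream of the start of Lrt, a gene of tendon cells, and 5320 bp from the maf-S start. It measured 0.994 in replicate 1, 0.645 in replicate 2 and 1.43 in replicate 3, a mean of 1.02 ± 0.391 (SD, n = 3). The weaker peak, with its summit at 20641619, falls in the maf-S 3' UTR in both transcripts, 643 bp from the maf-S start and 123 bp upstream of the start of CG11110. Replicate 1 listed no peak there, and replicates 2 and 3 gave 0.859 and 0.568, a mean of 0.714 ± 0.206 (SD, n = 2). Replicate 2 was the lowest at the Lrt peak and the highest at this one, so the replicates did not rank the same way at both.

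The antioxidant element letters were counted in the same windows. TGACNNNGC was found in 1 of the 6 member windows of 200 bp, the weaker maf-S window, and in 3.51% of all optimal windows. TGANNNNGC was found in 2 of 6, that window and the cnc window, and in 18.9% of all optimal windows. In windows of 400 bp the counts were 2 and 4, against 9.77% and 42.5% of all optimal windows, and in windows of 100 bp they were 0 and 1, against 1.45% and 8.48%. With 6 windows, these counts are a description. Base composition differed among the windows. GC content was 27.5% to 31.5% at the Keap1 summits, 34.5% at the cnc optimal summit, and 41.5% and 46.0% at the maf-S summits, against a median of 33.5% for optimal peaks.

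The strongest peak in each member's window was set beside the optimal peaks with the most similar values in the 3 replicates, by Euclidean distance in log2 normalised signal. For Keap1 that peak is the one in a kuk intron, and for maf-S the one at the Lrt start. For Keap1 these were peaks nearest to brwl, LPCAT and simj, at distances of 0.24, 0.25 and 0.33. For cnc they were nearest to CG6966, tnc and CG9411, at 0.06, 0.09 and 0.09. For maf-S they were nearest to jbug, CG13605 and CG43188, at 0.08, 0.14 and 0.17. The distances rest on 3 values each and describe height alone.

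The other genes of the redox response were counted in 7 lists, a gene being called where an optimal summit lay within 1000 bp of any of its starts, which held for 18% of protein-coding genes. Among Keap1 and Cnc partners and regulators 6 of 12 were called, and 3 of 9 without Keap1, cnc and maf-S. sgg, the fly GSK3 kinase, had 3.06 ± 0.628 (SD, n = 3), and crc, the fly ATF4, had 1.63 ± 0.442 (SD, n = 3) at a summit closer to the start of CG46314. fs(1)h, a bromodomain protein, named outside the rule after its value was seen, had 1.00 ± 0.312 (SD, n = 3). Of the ligase side, also named outside the rule, the scaffold Cul3 was 3.98 kb from the nearest optimal summit, the RING proteins Roc1a and Roc1b were 7.84 and 7.13 kb away, and ref(2)P, the fly p62, was 4.25 kb away, while slmb was 14.2 kb away. These distances run from the closest start of each gene. The median over all protein-coding genes was 8.66 kb. None of these 5 was called, although Cul3 and ref(2)P each had 1 optimal peak in the gene body or within 5 kb. The remaining gene of the list that was not called, Trc8, was 2.96 kb from the nearest optimal summit and also had 1 such peak.

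Other transcription regulators were also often called. Among basic leucine zipper factors 10 of 16 were called, and 8 of 14 without cnc and maf-S. Irbp18 had 3.28 ± 0.624, and Atf3, a stress-response factor, had 1.93 ± 0.173 (SD, n = 3 each), the Irbp18 summit being closer to the start of APP-BP1. Among stress kinases and redox-linked regulators 8 of 15 were called. Here Sesn, the fly sestrin, had 2.83 ± 0.625, the kinase p38a 2.73 ± 0.340, puc, the phosphatase of the JNK pathway, 2.11 ± 0.423, and the deacetylase Sirt1 1.50 ± 0.134 (SD, n = 3 each), the last closer to DnaJ-H. Without replicate 1, when a peak had to be found among the best peaks of both others, 5 of 15 were called, and the share of all genes fell to 13.6%.

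Among genes of glutathione synthesis and NADPH supply 6 of 10 were called. None of these was a glutathione synthesis gene. Gclc, Gclm, Gss1 and Gss2, a split made after the values were seen, were 0 of 4, and the other genes were 6 of 6. For those 4 the nearest optimal summit was 4.41 to 12.8 kb from a start. Gclc and Gss2 nevertheless had 2 and 1 optimal peaks in the gene body or within 5 kb, and Gclm and Gss1 had none. CG4199 had 2.01 ± 0.278, Nmdmc, a folate dehydrogenase, 1.07 ± 0.133, malic enzyme Men 0.924 ± 0.127, and Pgd, of the pentose phosphate pathway, 0.907 ± 0.238 (SD, n = 3 each). The CG4199 and Nmdmc summits were closer to the starts of Rtca and Mst85C. These means were all below that of the strongest Keap1 peak, and the CG4199 mean was the only one above that of cnc, with replicate values that overlap those of cnc.

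Among glutathione S-transferases, which join glutathione to electrophiles, 7 of 34 were called, at 6 distinct summits, GstE1 and GstE10 sharing the same summit. GstE13 stood far above the rest, with 6.39, 6.91 and 6.98 in replicates 1, 2 and 3, a mean of 6.76 ± 0.319 (SD, n = 3), at a summit 87 bp from its start that ranked 35. Every replicate value there was above the highest of the Keap1 peak. GstT4 had 2.55 ± 0.540, GstT1 1.79 ± 0.263 and GstE12 0.740 ± 0.339 (SD, n = 3 each). GstD1, the gene whose promoter is a common reporter of Cnc activity, named outside the rule after its value was seen, had 0.727 ± 0.427 (SD, n = 3). Without replicate 1 or without replicate 2 the count was 4 of 34, and among peaks found in all 3 it was 3, while the share of all genes fell from 18% to 13.6%, 13.4% and 12.4%.

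Among thioredoxin, peroxiredoxin, catalase and superoxide dismutase genes 5 of 18 were called. Cat, which encodes catalase, had 4.50, 2.16 and 4.25 in replicates 1, 2 and 3, a mean of 3.64 ± 1.28 (SD, n = 3), with replicate 2 well below the others. Prx6a had 0.875 ± 0.201, Sod2 0.846 ± 0.172 and Sod1 0.707 ± 0.245 (SD, n = 3 each), the Prx6a summit being closer to RabGGTb. Without replicate 1 or without replicate 2 the count was 3 of 18, against 13.6% and 13.4% of all genes. Among xenobiotic cytochrome P450 genes 1 of 7 was called, Cyp6a2, at 0.752 ± 0.061 (SD, n = 3).

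Without Keap1, cnc and maf-S, which were chosen with binding known, the partner list was called at 33.3%, the leucine zipper list at 57.1%, the stress list at 53.3% and the glutathione and NADPH list at 60%, and the 3 lists of detoxification and antioxidant enzymes at 14.3% to 27.8%, beside the 18% of all genes. The median number of start sites per gene was 2 or 3 in these first 4 lists and 1 in the enzyme lists and over all genes, so genes with more starts had more chances to be called. Its part in the shares was not tested. With the 1000 strongest optimal peaks alone, which call 5.06% of genes, the counts were 3 of 12 partners, 3 of 16 leucine zipper factors, 3 of 15 stress regulators, 1 of 10 glutathione and NADPH genes, 3 of 34 transferases, 1 of 18 and 0 of 7. These counts include chosen genes. The partners were Keap1, cnc and sgg, and the leucine zipper factors were cnc, Irbp18 and Atf3.

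**Figure D4:**
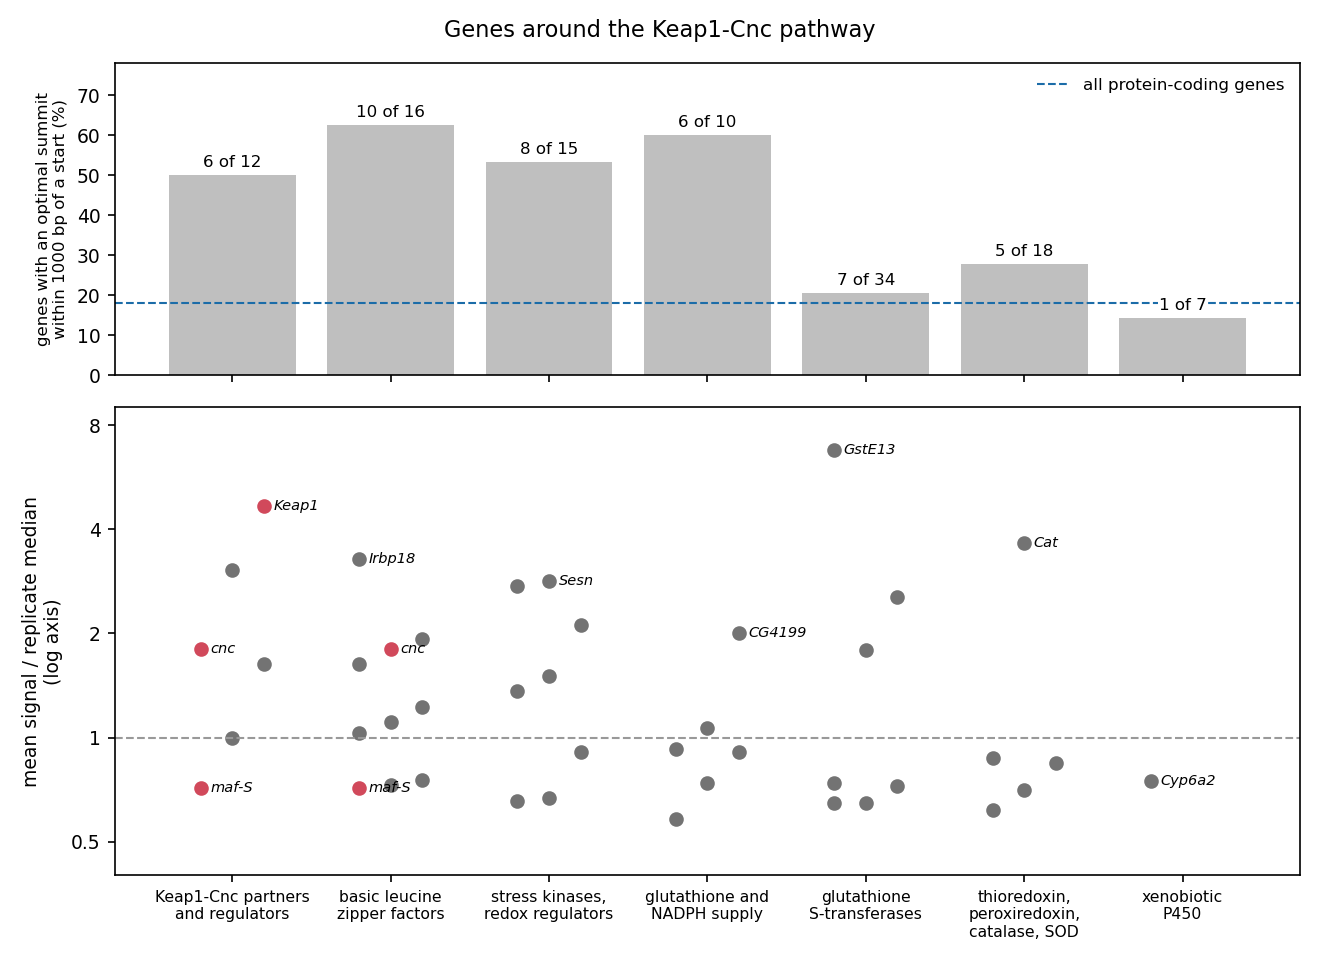
Above, bars give the share of each of the 7 lists with an optimal summit within 1000 bp of a start, in percent, with all protein-coding genes as a dashed line. Below, points give the mean normalised signal of each called gene on a log axis, with Keap1, cnc and maf-S in red. The maf-S point is the peak in its 3' UTR. The 3 lists of detoxification and antioxidant enzymes lie between 14.3% and 27.8%, and the 4 others stand higher, the partner list at 50% with the 3 chosen genes and at 33.3% without them.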

How the data were processed

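The files used were peak lists on dm6. Per the lists of files deposited with the samples, peaks and background were called against a control for every replicate and for the 3 together, and an irreproducible discovery rate threshold gave the optimal list. Neither aligner nor peak caller is given here by the labels or headers. Control libraries were not analysed. The authors' signal value per peak has no stated scale, and beside it stands a value read from the layout of the deposited lists as the −log10 of the q-value, which was not used to rank peaks. The lists hold no read counts, so depth is unknown, and precision rests on 3 samples labelled as biological replicates. The dm3 lists were not used.

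Replicate signal at an optimal peak is the highest signal overlapping it by 1 bp, divided by the median of that replicate's best peaks, as many as the optimal list holds. A replicate with no overlapping peak was left out of the mean. Ensembl release 115 (BDGP6.54) supplied gene models, and bases were read from the RefSeq copy of that assembly. Positions count from 1.

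The members, lists, motifs and rules were chosen with earlier results of these data known. The rule for named genes took the members with every optimal peak in their windows, the coding gene of the nearest start, the 4 genes of each list with the highest mean signal at a summit within 1000 bp of a start, and the 3 most similar optimal peaks per member. Listed symbols were matched through annotation synonyms. Alternatives covered windows, peak numbers, scaling and each replicate left out, which meant keeping optimal peaks found among the best peaks of both others. No test was run. The scripts, checked on simulated data, used Python 3.11.15, numpy 2.4.6, pandas 2.3.3 and matplotlib 3.10.9.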

Additional observations from a re-analysis of the deposited data

How the results depend on the processing

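Of 116 recomputed values, 73 stayed within 1.5 times the main count, or within 1 SD for a signal, and 43 moved. Those that moved include the signals divided by another median, which differ in scale by construction. By that limit 3 peaks against 2 at Keap1, or 6 partners against 4, count as unmoved. For optimal peaks per gene, the gene body alone left 1 at Keap1 (from 3) and 1 at maf-S (from 2), and 1 kb flanks left 1 at maf-S. The 1000 strongest optimal peaks left 1 at Keap1 and 0 at maf-S, the 10000 best pooled peaks gave 6 at cnc (from 1), and peaks among the best of all 3 replicates left 1 at maf-S. Leaving out a replicate gave 2 to 3 peaks at Keap1, and 1 at maf-S each time.

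The next values are those of the strongest optimal peak in each window, which for Keap1 is in a kuk intron and for maf-S at the Lrt start. Dividing signal by the median of the best 1000 peaks gave 1.89 for Keap1, 0.731 for cnc and 0.415 for maf-S. Dividing by that of all peaks gave 17.02, 6.55 and 3.65. The order of these peaks, the same in every replicate, could not change with the divisor. Without a replicate the main means ranged from 4.13 to 5.17, 1.72 to 1.87 and 0.819 to 1.21.

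Starts with an optimal summit numbered 2 for Keap1 within 2000 bp (from 1), 1 and 5 for cnc within 500 and 2000 bp (from 3), and 0 for maf-S within 500 bp, among peaks in all 3 replicates and without any 1 replicate (from 1).

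The 1000 strongest peaks, which call 5.06% of all genes, called 3 partners, 3 leucine zipper factors, 3 stress regulators, 1 glutathione and NADPH gene, 3 transferases, 1 thioredoxin-group gene and 0 P450 genes. Keap1 and cnc, chosen with binding known, are among these partners, and cnc is among these leucine zipper factors. Peaks in all 3 replicates, which call 12.4% of all genes against 18%, called 5 stress regulators (from 8), 3 transferases (from 7) and 3 thioredoxin-group genes (from 5), and leaving out a replicate gave 5 to 6, 4 to 5 and 3 to 5, against 13.4% to 14.1% of all genes. Of the 6 member windows, 2 held TGACNNNGC and 4 held TGANNNNGC at 400 bp, against 9.77% and 42.5% of all optimal windows. At 100 bp the counts were 0 and 1, against 1.45% and 8.48%.

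The 3 replicates form 1 group, so no paired comparison of conditions was possible. Peaks were compared within replicates, as for the ratio of Keap1 to cnc. Unknown depth and the lack of an untagged group limit every value, and signal here orders peaks and does not measure occupancy.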

Other observations

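GC content in the 200 bp around the 28 weak cnc summits ran from 29.5% to 58.5%, with a median of 37.25%, and 21 of them were above the cnc optimal summit. Over all 24952 pooled peaks below the optimal list the median was 39.5%, against 33.5% for optimal peaks. The strongest weak peak of cnc, upstream of cnc-RB, was the one at 58.5%.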
